A study of Mus musculus with 2 samples.

Results

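Cytokine genes that macrophages are known to secrete during inflammation or to limit it were examined in bone marrow-derived macrophages (BMDMs), grown from mouse marrow, with and without IL-4. The 10 genes were chosen by name as Il6, Osm, Il12a, Il12b, Il23a, Il27, Tnf, Il15, Ifnb1 and Il10, and their probes were found through the RefSeq accession of each probe. Of these 10 genes, 9 had a named probe, with 1 probe each, among 20652 genes that could be named on the array. Not every probe on the array could be named, and no accession in the name table led to Il12b. The array carries a probe of Il12b under an older RefSeq accession that the name table does not hold, so Il12b was not analysed here. The RNA came from male mice, which the study describes as 8-week-old Crif1 f/f mice without naming a Cre for these cells, and C57BL/6 is the background it gives for all but its Stat6-KO mice. One array held RNA of untreated BMDMs, and the other held RNA of BMDMs given IL-4 for 18 h. Both samples carry the floxed allele, and the IL-4 dose for the arrays and the number of animals behind each sample are not given in the sources used here. With 1 array per condition there was no replicate check, so no p-value is given, and the precision is limited by having only 2 arrays.

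These cytokines are made in small amounts by resting macrophages and in bursts after microbial products reach Toll-like receptors. TNF and IL-6 are the classic products of M1-like cells, IL-12 and IL-23 share the p40 chain encoded by Il12b and steer T cells, and IL-10 restrains the others. IL-4 drives BMDMs toward the M2-like state through STAT6.

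The table of RefSeq promoter stretches used here held 5 of the 10 cytokine genes, namely Il6, Tnf, Ifnb1, Il12a and Il12b. The 250 bases before the start of Il6, Tnf and Ifnb1 are given below, because Il6 had the largest difference after IL-4 among the measured cytokines, Tnf was printed in 10 spots, and Ifnb1 was read at background on both arrays. The stretches are from GRCm38.p6 and run 5′ to 3′ on the strand of the gene. They lie at chr5:30012864-30013113 on the plus strand for Il6, at chr17:35202008-35202257 on the minus strand for Tnf and at chr4:88522795-88523044 on the minus strand for Ifnb1. Capitals mark matches on either strand to a κB motif (GGG and TTCC with 3 bases between), a STAT6 motif (TTC and GAA with 4 bases between) or an AP-1 motif (TGA and TCA with 1 base between).
Il6: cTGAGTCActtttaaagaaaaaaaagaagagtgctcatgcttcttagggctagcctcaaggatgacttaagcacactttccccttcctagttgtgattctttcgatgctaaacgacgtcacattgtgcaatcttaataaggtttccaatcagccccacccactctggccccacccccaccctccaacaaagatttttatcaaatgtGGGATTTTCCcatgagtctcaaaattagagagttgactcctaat
Tnf: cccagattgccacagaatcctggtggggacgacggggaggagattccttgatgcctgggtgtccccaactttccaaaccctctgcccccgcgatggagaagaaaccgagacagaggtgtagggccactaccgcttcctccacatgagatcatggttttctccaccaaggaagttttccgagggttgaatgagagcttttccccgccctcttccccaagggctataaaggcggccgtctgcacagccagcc
Ifnb1: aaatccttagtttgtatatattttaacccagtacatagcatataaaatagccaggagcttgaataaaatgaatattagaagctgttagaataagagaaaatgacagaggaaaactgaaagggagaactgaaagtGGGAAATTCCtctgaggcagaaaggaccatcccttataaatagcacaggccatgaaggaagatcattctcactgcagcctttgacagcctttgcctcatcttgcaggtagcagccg

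In Il6 the κB match lay 44 to 35 bases before the start, and an AP-1 match lay 249 to 243 bases before it. In Ifnb1 the κB match lay 116 to 107 bases before the start. In Tnf and Il12b none of the 3 motifs matched within this stretch. Il12a had 2 stretches in the table, and each held a STAT6 match, 200 to 191 bases before the start in one and 239 to 230 bases in the other. Among the 32851 promoter stretches of the same length in the table, 4.65% held the κB motif, 5.85% the STAT6 motif and 6.75% the AP-1 motif. A match is a description of letters and not a binding site, and these matches were not related to the array values.

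IL-4 was followed by a mixed picture in these cytokines. Of the 9 with a named probe, 5 were well above background on both arrays, and 4 were on neither array. Il6, Il27 and Tnf had higher signal after IL-4, and Il15 and Osm had lower signal. Il6 alone reached 2-fold, at 1 of the 5 measured cytokines, against a background of 3.06% for genes raised 2-fold or more among the 14070 genes that passed the detection flag on either array. None of these cytokines was lowered 2-fold or more, against a background of 3.35%. At a cutoff of 1.5-fold, Il15 and Osm were lower, where 8.95% of those genes were, and Il6 remained the single higher one, where 6.36% were. The median log2 difference of the 5 cytokines was 0.28, against -0.01 for the 12741 genes measured on both arrays. A set of 5 genes is too small to read these shares as a property of the set. The signals quoted here are background-subtracted intensities before scaling, and each log2 difference is IL-4 minus untreated after scaling by each array's 75th percentile. The error given with a difference is the SD between spots, and it leaves out any spread between cultures. A probe was well above background when the scanner software's flag said so for most of its spots, and the lowest signal that passed was 29.2 without IL-4 and 27.9 with it.

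**Figure D1:**
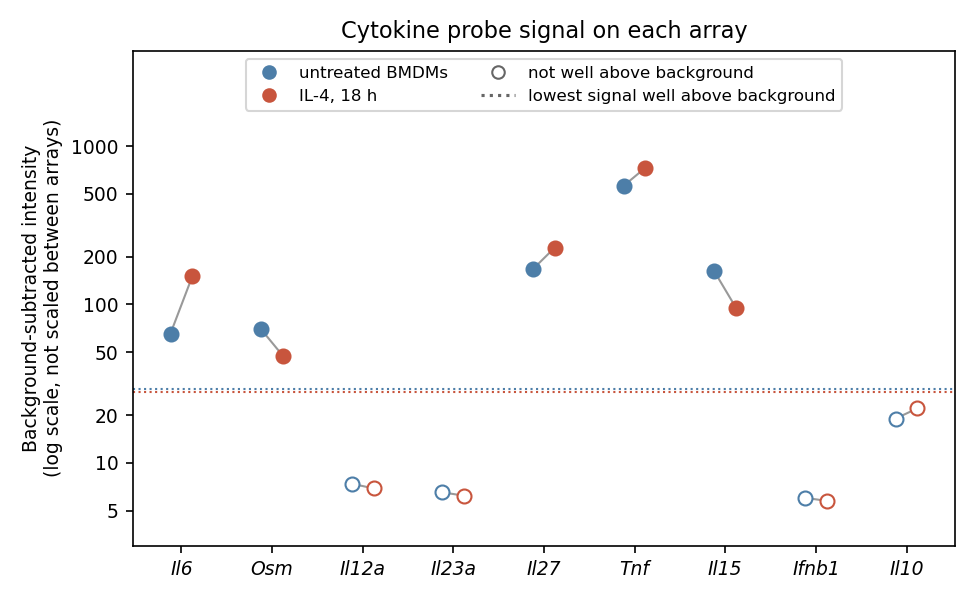
Background-subtracted intensity (log axis, not scaled between arrays) of the probe of each cytokine, for untreated BMDMs (blue) and IL-4-treated BMDMs (red). Filled points are well above background, open points are not, and dotted lines give the lowest signal well above background on each array. Levels of different probes cannot be ranked against each other. Il12a, Il23a, Ifnb1 and Il10 lie under the dotted lines on both arrays.

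IL-6 and oncostatin M (encoded by Osm) are relatives that signal through the shared receptor chain gp130. Il6 encodes the cytokine of fever and the acute phase response, and its probe had a signal of 65.6 in untreated BMDMs and 150 after IL-4. The raw pixel intensity of that spot was 138 and 227, beside a median of 57 for negative control spots in each sample. The log2 difference was 1.10 with an SD of 0.16, the median over 37 probes of like signal with 10 spots each, and it corresponds to a 2.14-fold higher signal. It therefore lies within 1 SD of the 2-fold cutoff. With normexp, which estimates background anew from raw pixels and adds an offset of 50, the difference fell to 0.45 and the 2-fold call ended. Osm had a signal of 69.6 in untreated BMDMs and 47.4 after IL-4. Its log2 difference was -0.65 with an SD of 0.21 over 26 probes of similar signal, or 1.57-fold lower. The software put the error of the Osm spot at 15.0% of its intensity for untreated BMDMs and 19.1% after IL-4. These relatives thus differed in opposite directions on the same pair of arrays, and the signs of both held under every other scaling and with normexp.

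The IL-12 family joins a helical chain to a receptor-like chain. Its helical chains here are p35 of IL-12 (Il12a), p19 of IL-23 (Il23a) and p28 of IL-27 (Il27). Il27 passed the detection flag on both arrays, with a signal of 168 in untreated BMDMs and 229 after IL-4. Its log2 difference was 0.35 with an SD of 0.10 over 47 probes of similar signal, or 1.27-fold higher. The difference moved from 0.35 to 0.16 with normexp and to 0.67 with spike-in scaling, and it was positive throughout. Il12a had a signal of 7.38 in untreated BMDMs and 6.90 after IL-4, and Il23a had 6.51 and 6.20. Neither gene passed the detection flag on an array, so no fold is given for Il12a or Il23a. Their raw pixel intensities were 49.5 and 52 for Il12a and 65 and 67 for Il23a, near the negative controls.

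TNF is made as a membrane protein and released by a protease, and its signal reached well above background in all 10 spots of its probe on both arrays. In untreated BMDMs the spots of Tnf ran from 544 to 582 with a median of 563. After IL-4 they ran from 688 to 760 with a median of 739. After scaling, the spots ran from -0.75 to -0.65 log2 units for untreated BMDMs and from -0.51 to -0.37 after IL-4, so the spots of the 2 arrays did not overlap. Spots of 1 array are repeat readings of 1 RNA and not replicates. The log2 difference was 0.28 with an SD of 0.05 between its own spots, or 1.21-fold higher. It ranged from 0.23 to 0.60 over the alternatives run.

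Il15 encodes a cytokine that supports NK cells and memory T cells and is handed over on the IL-15 receptor α chain. Its signal was 162 in untreated BMDMs and 95.0 after IL-4. The log2 difference was -0.87 with an SD of 0.13 over 45 probes of similar signal, or 1.82-fold lower. It ranged from -0.92 to -0.55 over the alternatives, below 0 in each. Ifnb1 encodes interferon β, and its signal was 6.02 in untreated BMDMs and 5.75 after IL-4. It passed the detection flag on neither array and has no fold.

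IL-10 is the main cytokine here that dampens inflammation. The 10 spots of Il10 ran from 13.7 to 23.6 with a median of 19.5 in untreated BMDMs, and from 14.9 to 46.9 with a median of 19.9 after IL-4. No spot was well above background before IL-4 and 2 were after it, so the probe passed on neither. A weaker flag of the software, positive and significant against background, was set for all 10 spots on both arrays. The signal of Il10 thus lay above local background but too low for a fold, and the medians of its spots were close on the 2 arrays. A single IL-4 spot at 46.9 stood apart from the next highest at 28.1.

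**Figure D2:**
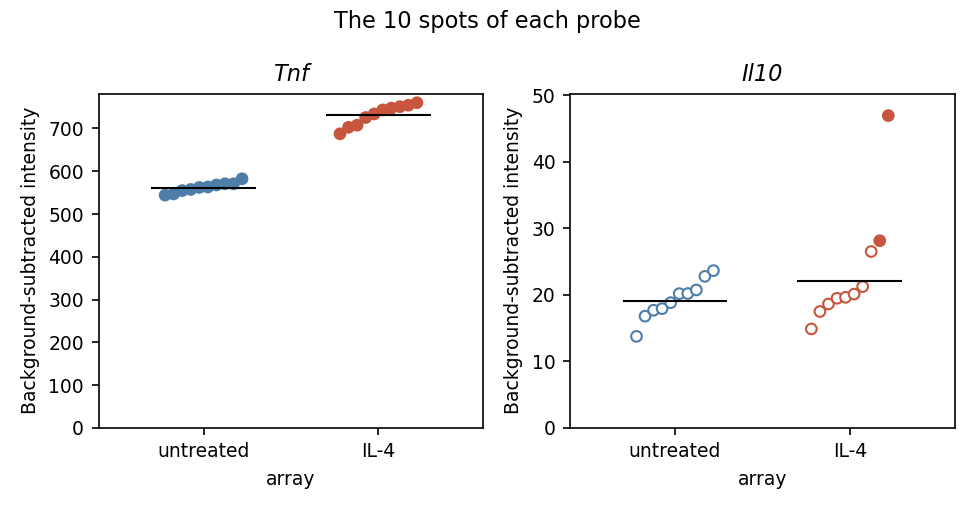
Background-subtracted intensity of each of the 10 spots printed for Tnf (left) and Il10 (right) on the untreated and IL-4 arrays, sorted by value, with a line at the geometric mean. Filled spots were well above background. The Tnf spots, 544 to 582 against 688 to 760, do not overlap, and the Il10 spots do.

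**Figure D3:**
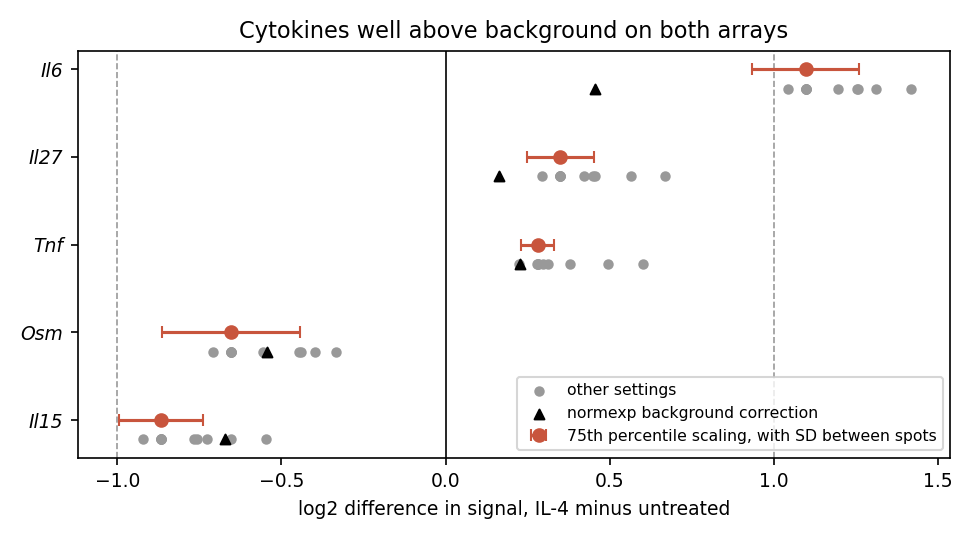
The log2 difference in signal, IL-4 minus untreated, of the 5 cytokines well above background on both arrays. Red points with bars give the 75th percentile scaling with the SD between spots, grey points the other settings and black triangles the normexp background correction. Dashed lines mark 2-fold. The sign of each cytokine held in every setting, and Il6 fell below 2-fold with normexp.

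The receptors of these cytokines were read next, as a list of 17 genes that all had a probe. The detection flag was passed by 13 on both arrays, by 1 after IL-4 only and by 3 (Il12rb2, Il23r and Il2rb) on neither. The list held 3 genes raised 2-fold or more and 0 lowered as much, where 3.06% and 3.35% of all genes with the flag on either array were, and the median over the 13 was 0.01. The count of raised receptors fell to 2 with normexp, which took out Il27ra, and to 2 with the median over the probes of a gene, which took out Il15ra. Il6st encodes gp130, the chain shared by IL-6, oncostatin M and IL-27, and its signal was 2413 in untreated BMDMs and 6933 after IL-4. The log2 difference of Il6st was 1.42 and stayed between 1.37 and 1.74 over the alternatives. Il27ra, the other chain for IL-27, had a signal of 31.2 in untreated BMDMs, below the detection flag, and 82.5 after IL-4. Set against that dim signal, Il27ra was 2.47-fold higher after scaling, and its log2 difference was 0.35 with normexp. Il15ra had a log2 difference of 1.34 at the probe with the higher signal, from 6298 to 17096, and of -1.03 at its other probe, from 148 to 77.9. The probes of Il15ra thus disagree in direction, and their median was 0.16. Il6ra, which binds IL-6 itself, had a difference of -0.18 that turned to 0.04 with median scaling and to 0.15 with spike-in scaling. Il10ra, the ligand-binding chain for IL-10, had a difference of -0.69, and Il10rb, its partner, one of 0.43. Tnfrsf1a, the main TNF receptor, had a difference of -0.10 at each of its 2 probes, which turned to 0.12 at the brighter probe with median scaling.

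Partner chains and family relatives made up a list of 29 genes, of which 28 had a probe. The flag was passed by 12 on both arrays, by 3 on 1 array only and by 13 on neither. The list held 0 genes raised 2-fold or more and 1 lowered as much, where 3.06% and 3.35% of all genes with the flag on either array were. The median over the 12 was -0.21. Tnfsf14, which encodes the TNF relative LIGHT, went from 61.5 to a signal of 30.3 that was not well above background. Set against that dim signal, Tnfsf14 was 2.18-fold lower after scaling. This call ended under median, quantile, cyclic loess and spike-in scaling and with normexp. Ebi3, the chain that pairs with p28 in IL-27, had a signal of 4413 in untreated BMDMs and 3898 after IL-4, a log2 difference of -0.28 that turned to 0.04 with spike-in scaling. Tnfsf12, which encodes TWEAK, had differences of -0.11 and -0.35 at its 2 probes, and the first turned to 0.10 with median scaling. Il11, a gp130 cytokine, had a signal of 1012 and 632 and a difference of -0.78.

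Regulators of cytokine mRNA were all well above background on both arrays, 12 of 12, with a median difference of -0.02. Most are proteins that bind such transcripts and set how long they last or how well they are translated. The list also held Dusp1, which encodes a phosphatase and not such a protein, with a difference of -0.53. Zc3h12a encodes Regnase-1, an RNase that cuts the Il6 transcript, and its signal was 92.8 in untreated BMDMs and 203 after IL-4. Among all genes with the flag on either array, 3.06% were raised 2-fold or more. The log2 difference of Zc3h12a was 1.03, the only one of the list past 2-fold. It was 0.53 with normexp and also under 2-fold with the percentile taken over probes detected on both arrays. Zfp36, which encodes tristetraprolin, a protein that speeds decay of the Tnf transcript, had a difference of 0.48. Zfp36l2 had one of -0.29 that turned to 0.03 with spike-in scaling. Elavl1, which encodes HuR, had differences of 0.29 and -0.06 at its 2 probes. For the release of TNF from the membrane, 6 of 6 genes were well above background on both arrays, with a median of 0.13. Of these, 1 was raised 2-fold or more and 0 were lowered as much, beside 3.06% and 3.35% of all flagged genes. Rhbdf2, which encodes the carrier iRhom2 of the TNF-releasing protease, had a signal of 1154 in untreated BMDMs and 2513 after IL-4 and a log2 difference of 1.02. It fell to 0.89 with normexp and was also under 2-fold with quantile normalization and with the percentile taken over probes detected on both arrays. Adam17, that protease, had a difference of 0.17 at the probe with the higher signal and 0.45 at the other, and the first turned to -0.01 with normexp. Frmd8, which steadies the iRhom carriers, and Timp3, an inhibitor of that protease, had differences of 0.33 and 0.01, and that of Timp3 turned negative under quantile, cyclic loess and a further percentile scaling.

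Transcription factors that act on inflammatory cytokine genes were well above background on both arrays in 16 of 17 cases, with Rel as the exception. Their median difference was 0.22, with 4 raised and 1 lowered by 2-fold or more, beside 3.06% and 3.35% of all genes with the flag on either array. With normexp 2 were raised and 0 lowered, and under median, quantile, cyclic loess, no and spike-in scaling 4 were raised and 0 lowered. Atf3, a factor known to restrain cytokine genes, had a signal of 6347 in untreated BMDMs and 18466 after IL-4, 2.72-fold higher. Nfil3, which is known to limit Il12b, was 2.29-fold higher, from 3634 to 8917. Nfkb1, which encodes the p50 subunit of NF-κB, had differences of 1.16 and 1.83 at its 2 probes, and the first was 0.97 with normexp. Irf7, a factor of the interferon response, had a difference of 1.34 that fell to 0.84 with normexp. Nfkbiz, which encodes IκBζ, a cofactor for Il6, was 2.05-fold lower, from 245 to 128, with a log2 difference of -1.04. Under those settings the difference of Nfkbiz reached -0.72 at its smallest. Cebpb had a difference of 0.54, and Rela, the p65 subunit, had one of 0.08 that turned to -0.03 with quantile normalization.

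Genes known to respond to these cytokines made up a list of 14, of which 13 had a probe. The flag was passed by 12 on both arrays, with a median difference of 0.44. The list held 1 gene raised 2-fold or more and 0 lowered, where 3.06% and 3.35% of all genes with the flag on either array were. Ifit1, an interferon-stimulated gene, was at least 2.02-fold higher, from 25.7, not well above background, to 63.3. It was 0.16 on the log2 scale with normexp and also under 2-fold with the percentile taken over probes detected on both arrays. Isg15, Rsad2 and Cxcl10, which interferons also induce, were well above background on both arrays with differences of 0.61, 0.52 and 0.67, positive in every setting run and under 2-fold in each. The dimmer probe of Isg15 had a difference of 0.22. Socs3, a target of gp130 signalling, had a difference of 0.46, Nfkbia and Tnfaip3, which are targets and inhibitors of NF-κB, had 0.41 and 0.68, and Tnfaip2 had 0.09. Saa3, an acute phase gene, had a difference of 0.91 that passed 2-fold under median scaling, no scaling and spike-in scaling. Nos2 had a difference of -0.06 that turned to 0.15 with median scaling. Bcl3, which was also counted among the transcription factors, had one of 0.20. Ifit2 and Ifit3 lay at -0.67 and -0.26, so the interferon-stimulated genes differed in sign among themselves, although Ifit3 turned to 0.06 with spike-in scaling.

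**Figure D4:**
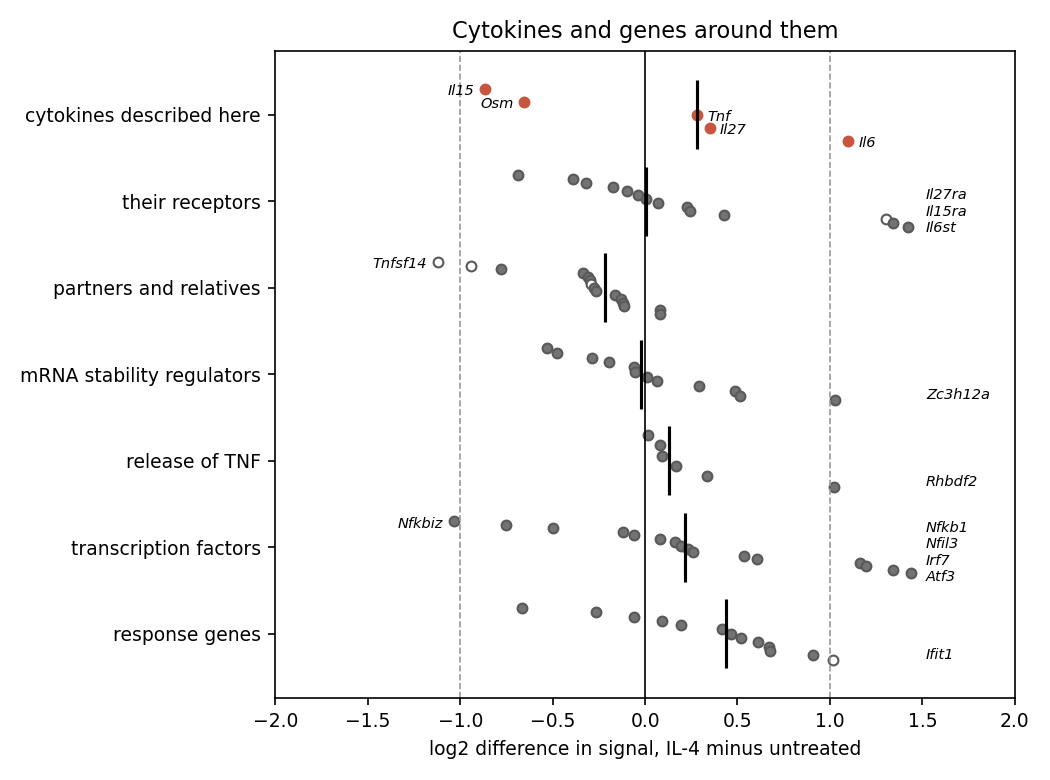
The log2 difference in signal, IL-4 minus untreated, of each gene with a fold, in the cytokines (red) and in 6 lists of genes around them (grey), 1 row per list. Filled points were well above background on both arrays, and open points on 1 array only. Black bars are the medians of the genes with filled points, dashed lines mark 2-fold, and the genes past 2-fold are named. The cytokine median was 0.28 and that of the receptors 0.01.

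The labelled cell type and treatment were checked on these arrays. The 6 macrophage markers with a probe were well above background on both arrays, with signals between 2263 and 146026 in untreated BMDMs and between 1102 and 166510 after IL-4. Mertk and Fcgr1 were lowered past 2-fold, at -1.14 and -1.23, where 3.35% of all genes with the flag on either array were. Median and spike-in scaling shift all genes alike, and moved the median of all genes from -0.01 to 0.20 and 0.31. A shift of that size ends the call of Mertk under both scalings and that of Fcgr1 under spike-in scaling. The log2 differences of Itgam and Lyz2 were -0.71 and -0.70, and those of Adgre1 and Csf1r were 0.17 and 0.09. Arg1 went from 84.9 to 19688 and Retnla from 6.99, not well above background, to 18633. Markers of other cells were present in part: 4 of 4 stromal and endothelial markers, summed at 60204 in untreated BMDMs and 51843 after IL-4, 4 of 4 neutrophil and granulocyte precursor markers, summed at 34677 and 34325, and 2 of 5 dendritic cell markers, summed at 29163 and 31733. Siglech, a receptor of plasmacytoid dendritic cells, made up most of the last sum, at 29067 and 31659, while Flt3, Xcr1 and Clec9a passed the flag on neither array. The flag was also passed on at least 1 array by 3 of 6 T cell markers, summed at 1014 and 957, by 1 of 3 B cell markers, summed at 455 and 356, by 1 of 4 NK cell markers, summed at 81.1 and 32.0, and by 3 of 5 mast cell, basophil and eosinophil markers, summed at 354 and 240. Col1a1, a collagen gene of fibroblasts, alone had 58153 and 49150, and S100a9, a neutrophil marker, alone had 26443 and 26347. Levels of different probes cannot be ranked against each other, so the sums do not compare the amounts of these cell types. Cd3g, Cd3d, Cd8a, Cd79a and Ms4a1 passed the flag on neither array. The study gives a high purity for its BMDM cultures, from flow cytometry of macrophage surface markers. Whether these marker signals came from other cells was not tested, nor was the part of such cells in the cytokine signals. In bulk RNA, fewer cells of a type and less RNA per cell cannot be told apart.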

How the data were processed

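Untreated and IL-4-treated (18 h) BMDMs gave 1 single-colour array each. The authors deposited the scanner intensity of every spot from Agilent Feature Extraction 10.10.1.1, with background and within-array trends removed and no scaling across arrays. A table of log2 values processed by the authors was deposited too, whose making is not given in the sources used here. Spots flagged as outliers were left out, log2 values were averaged over the spots of a probe, and each array's 75th percentile was subtracted. Of 39424 probes with a spot left, 27223 were named through RefSeq accessions (GRCm38.p6, used for names and promoter sequences, while the array design was annotated on mm9). For a gene with several probes, the one with the highest mean signal was used. For a probe well above background on 1 array only, the fold was set against the larger of 2 values on the dim array. These were its signal there and the lowest signal that passed. The fold is a lower bound where the lowest passing signal was used, as for Ifit1. It is the plain ratio where the dim signal was used, as for Il27ra and Tnfsf14. Called means at least 2-fold, with no test. The genes named were the 10 cytokines and, per list, the 2 with the highest signal and those past 2-fold, and other list genes were named after their values were seen. The cytokines and lists were chosen with earlier results of these data known. Alternatives were other scalings, normexp on median pixel intensity, flagged spots kept, other probe rules, a 1.5-fold cutoff and the authors' values. 1 marker gene of the fixed lists is not reported here. Counting was tested on simulated data. The tools were limma 3.58.1 in R 4.3.3, and Python 3.11.15 with pandas 2.3.3 and numpy 2.4.6.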

Additional observations from a re-analysis of the deposited data

How the results depend on the processing

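No paired analysis was possible because there is a single array for untreated and for IL-4. A difference counts here as moved when it changed by more than the SD between spots. Each of the 5 measured cytokines kept its sign under every other scaling and with normexp. Flagged spots kept, no bound and the median over probes could hardly move them, since each has 1 probe, measured on both arrays, and no flagged spot. The authors' values gave 1.0973 for Il6, beside 1.0967 in the main scaling, and the other cytokines were offset alike. Their match is therefore no separate check. All of these settings gave the same values to 2 decimals. Median scaling, which moved the median of all genes measured on both arrays from -0.01 to 0.20, gave 1.31 for Il6, 0.56 for Il27, -0.65 for Il15, 0.49 for Tnf, -0.44 for Osm and 0.49 for the median of the cytokines. Spike-in scaling, which moved that median of all genes to 0.31, gave 1.42, 0.67, -0.55, 0.60, -0.33 and 0.60 for the same values. Normexp gave 0.45 for Il6, 0.16 for Il27, -0.67 for Il15 and 0.23 for Tnf, and left 0 cytokines at least 2-fold higher. The median of the cytokines was 0.16 with normexp, the lowest of the settings run. Among all genes with a fold, normexp left 248 of 13893 at least 2-fold higher and 151 lower. The main scaling had 431 of 14050 higher and 472 lower, so calls were fewer across the array with normexp. Cyclic loess gave 0.45 for Il27 and -0.73 for Il15, quantile normalization gave -0.40 for Osm, no scaling gave 0.38 for Tnf, and a 75th percentile taken from the probes detected on both arrays gave 0.23 for Tnf. With a 1.5-fold cutoff, 2 cytokines counted as lower, where 8.95% of genes with the flag on either array were. For the scalings and normexp the cause was not tested. Counting positive and significant signals in place of well above background raised the cytokines seen from 5 to 6, the added one being Il10. Signal over background limits Il10, Il12a, Il23a and Ifnb1, for which no direction can be read.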
